A study of Mus musculus with 6 samples.

Results

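Drug-metabolising enzymes and ABC exporters were read in the RNA of mouse small-intestinal organoids given arachidonic acid or its vehicle. The members were all protein-coding rows whose symbol starts with Cyp1a, Cyp2b, Cyp2d or Cyp3a (cytochromes P450), Ces1 or Ces2 (carboxylesterases), Ugt1a or Ugt2 (UDP-glucuronosyltransferases), Sult (sulfotransferases), or Abcb1 or Abcc (ATP-binding cassette transporters), whose FPKM averaged 0.5 or more across all libraries of both groups. FPKM is fragments scaled by gene length and by sequencing depth. This rule found 47 members among 93 matching protein-coding rows, out of 53953 rows in all. Of the 93 rows, 19 were at 0 in every library, 13 of them sulfotransferases. The members comprised 9 of 24 cytochromes P450, 11 of 15 carboxylesterases, 9 of 19 glucuronosyltransferases, 7 of 21 sulfotransferases and 11 of 14 ABC transporters. They were thus chosen by their mean FPKM, which is a description and supports nothing below. Ugt1a9, Sult1a1 and Ces2f lay just inside the limit, with means of 0.519, 0.620 and 0.648 FPKM. Ces2b, Ugt1a6b and Cyp3a57 lay just outside it, with means of 0.302, 0.305 and 0.308 FPKM. The prefix Abcb1 also took in Abcb10, a transporter of the mitochondrial inner membrane, and the prefix Abcc took in Abcc8, the sulfonylurea receptor subunit of a potassium channel. Neither is a drug exporter of the plasma membrane.

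Enterocytes meet drugs, plant toxins and bile acids before the liver does, and clear them in steps. Cytochromes P450 oxidise the compound and carboxylesterases split its ester bonds. Glucuronosyltransferases and sulfotransferases then attach glucuronic acid or sulfate, and ABC transporters pump the drug or its conjugate out of the cell, at the lumen (P-glycoprotein, Abcc2) or towards the blood (Abcc1, Abcc3, Abcc4).

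The organoids were epithelial cultures grown in Matrigel from crypts of C57BL/6 wt mice (proximal small intestine), at passage 3 to 5. Both groups were grown in the same medium with antibiotics; one received arachidonic acid, an omega-6 fatty acid, for 3 days before passaging and the other the vehicle, 0.1% ethanol, and on day 3 after passaging total RNA was extracted. The sources used here give no dose of arachidonic acid. Each group had 3 libraries, and nothing says whether these came from separate cultures or mice, so p-values measure only how far these libraries spread, and that spread may be technical.

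The deposited values implied 35.6 to 50.8 M fragments per library (M, 1e+06). The epithelial markers Epcam, Cdh1 and Krt8 were each at 281.8 FPKM or more in every library, whereas 7 mesenchymal markers summed to at most 0.426 FPKM, 3 endothelial markers to at most 0.188 FPKM and 6 leukocyte markers to at most 1.56 FPKM in any library. On principal component 1 of all tested genes, which held 85.2% of the variance, arachidonic acid replicate 1 lay at 10.2, between the vehicle libraries at -41.6 to -40.4 and arachidonic acid replicates 2 and 3 at 58.1 and 54.6. Tested members whose call turns on that library are given with and without it. These are bulk samples, so fewer cells of a type and less RNA per cell cannot be told apart.

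The promoters of Cyp3a11, Abcc2 and Abcc4 are shown because the results turn on these members and each promoter holds a match to a motif named below. They are the 250 bases before the start, read 5′ to 3′ on the gene's strand, from RefSeq on GRCm38.p6, with matches in capitals. Cyp3a11 (chr5:145879855-145880104, minus strand) is a drug oxidase among those that fell, and its capitals mark a match to the HNF4 motif.
Cyp3a11: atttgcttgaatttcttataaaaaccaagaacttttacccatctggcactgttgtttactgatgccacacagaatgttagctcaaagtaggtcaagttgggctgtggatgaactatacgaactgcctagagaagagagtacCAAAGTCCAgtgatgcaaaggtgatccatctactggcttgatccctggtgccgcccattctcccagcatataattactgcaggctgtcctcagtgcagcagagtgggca
Abcc2 (chr19:43782058-43782307, plus strand) is the most abundant transporter with arachidonic acid, and its capitals mark the core of an antioxidant response element.
Abcc2: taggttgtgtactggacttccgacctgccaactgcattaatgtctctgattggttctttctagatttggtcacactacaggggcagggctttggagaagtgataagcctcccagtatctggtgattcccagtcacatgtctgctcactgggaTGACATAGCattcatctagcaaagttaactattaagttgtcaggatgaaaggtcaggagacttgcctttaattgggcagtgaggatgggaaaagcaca
Abcc4 (chr14:118706220-118706469, minus strand) is the member that rose most by log2 fold change, and its capitals mark, in order, a match to the xenobiotic response element and one to the antioxidant response element core, both on the opposite strand.
Abcc4: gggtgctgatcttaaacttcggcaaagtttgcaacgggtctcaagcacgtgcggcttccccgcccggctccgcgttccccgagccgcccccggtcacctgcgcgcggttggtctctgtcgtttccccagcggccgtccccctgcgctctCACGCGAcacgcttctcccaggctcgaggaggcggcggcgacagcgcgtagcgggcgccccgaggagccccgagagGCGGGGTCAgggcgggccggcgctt

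RefSeq held a promoter for 39 of the 47 members, 12 of which rose, 11 fell and 13 did not pass, with 3 not tested. The other 8 members were not searched: Abcc1, Abcc3, Abcc6, Abcc8, Ces1d, Ces1f, Cyp2d22 and Sult4a1. Each motif was searched on both strands. The xenobiotic response element, TNGCGTG, was present in 2 of the 39, Abcc4 and Sult1d1, against 4.76% of the promoters of 27025 genes. The antioxidant response element core, TGACNNNGC, was present in Abcc2 and Abcc4, which rose, and in Abcc10, which fell, against 11.5% of all. The HNF4 motif, CAAAGTCCA, was present in Cyp3a11 alone, against 0.451% of all. A CDX motif, TTTATG, was present in 7 members, of which Ces1g, Ces2g and Sult1d1 rose, Ces1c, Ces1e and Cyp2b10 fell and Ces1b did not pass, against 12.4% of all. Matches do not overlap in the printed promoters. Abcc4 has another start in RefSeq, not shown, and a gene with several starts counted once. A match is a description of these letters and not a site.

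Testing was limited to genes averaging 1 FPKM or more, which left 41 of the 47 members. In limma on log2(FPKM + 1), with Benjamini-Hochberg adjustment over all 12913 genes tested and a threshold of 0.05, 27 of the 41 changed. Of these, 15 rose, against a background of 20.8% of all tested genes, and 12 fell, against 19.4%. In either direction 65.9% of the tested members passed, against 40.2% of all tested genes. The median log2 fold change was 0.15 over the tested members and -0.03 over all tested genes. The difference was at least 1 log2 unit for 16 of the 27. The 2 groups of libraries did not overlap for 31 of the 47 members, against 55% of all tested genes. Those 47 include 6 members that were not tested. Ces1g had a mean under 1 FPKM with vehicle, and Ces1c and Cyp3a59 had one under 1 FPKM with arachidonic acid, so these 3 reached the test through 1 group. Fold changes are on the log2(FPKM + 1) scale, which understates the ratio of low values.

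**Figure D1:**
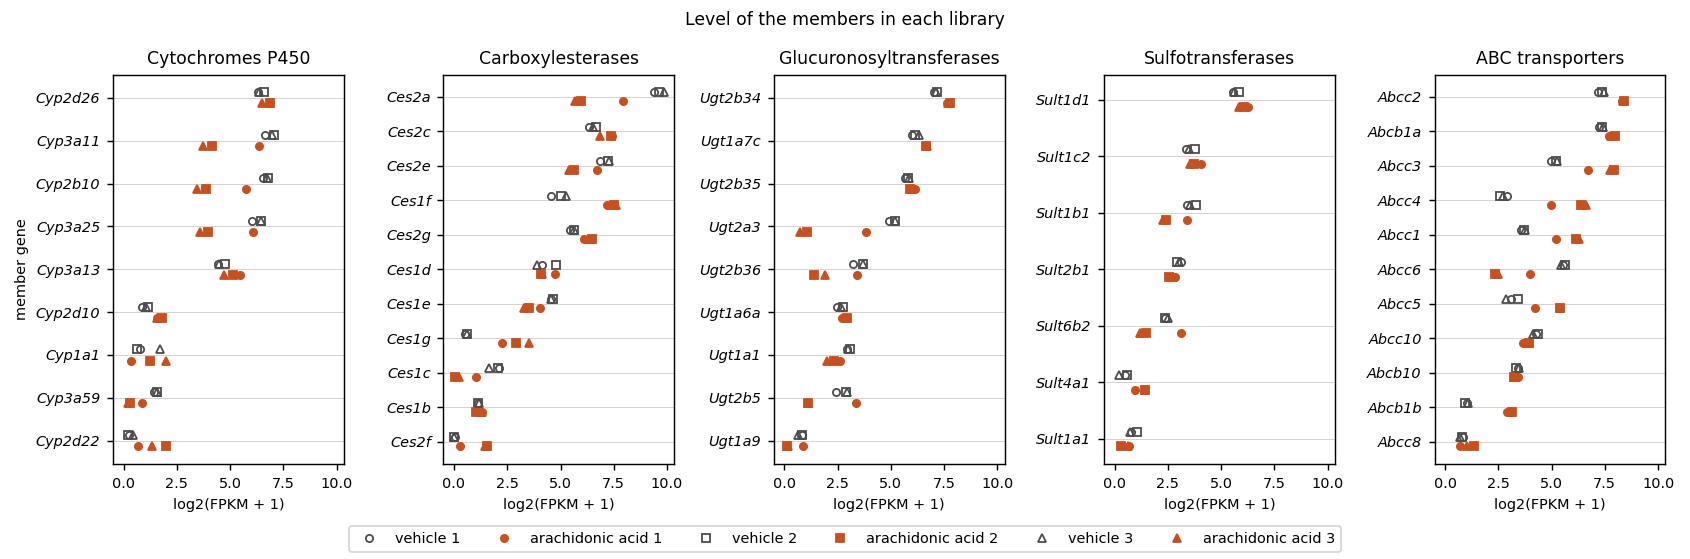
Level of each of the 47 members as log2(FPKM + 1), 1 panel per family, with open symbols for the 3 vehicle libraries and filled symbols for the 3 arachidonic acid libraries. Ces2a stands alone at the top with vehicle, and Abcc3, Abcc4, Abcc1 and Abcc5 are shifted to higher levels with arachidonic acid.

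Only the ABC transporters had more rises than falls. Among the 10 tested ABC transporters 7 rose, 2 fell and 1 did not pass, with a median log2 fold change of 1.45. The 10 tested carboxylesterases divided evenly, with 4 that rose and 4 that fell (median 0.06). Ces2a, Ces1f and Ces1g of that family moved by more than 2 log2 units. Cytochromes P450 gave 1 rise and 3 falls among 8 (median -0.46), glucuronosyltransferases 2 and 2 among 8 (median -0.24), and sulfotransferases 1 and 1 among 5 (median -0.31). The share called in either direction was 90% for ABC transporters, 80% for carboxylesterases, 50% for cytochromes P450 and glucuronosyltransferases, and 40% for sulfotransferases. Of all tested genes 20.8% rose, 19.4% fell and 40.2% passed in either direction. Over the 31 tested enzymes together, 8 rose and 10 fell, with a median of 0.05. The families were not tested against each other. Leaving out 1 library at a time gave 12 to 17 rises and 4 to 17 falls among the members: 17 fell without arachidonic acid replicate 1, 6 and 8 without replicates 2 and 3, and 5, 4 and 5 without vehicle replicates 1, 2 and 3. The 7 rises of the transporters were called in each of these fits. By contrast, the 3 falls of the cytochromes P450 numbered 0 to 4, with 0 without vehicle replicate 2 or 3. With vehicle replicate 2 or 3 left out, Cyp3a59 averaged under 1 FPKM and was not tested. Cyp3a59 fell in each of these fits that tested it. The 2 falls of the glucuronosyltransferases numbered 0 to 4, with 0 without any 1 vehicle library or arachidonic acid replicate 2.

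**Figure D2:**
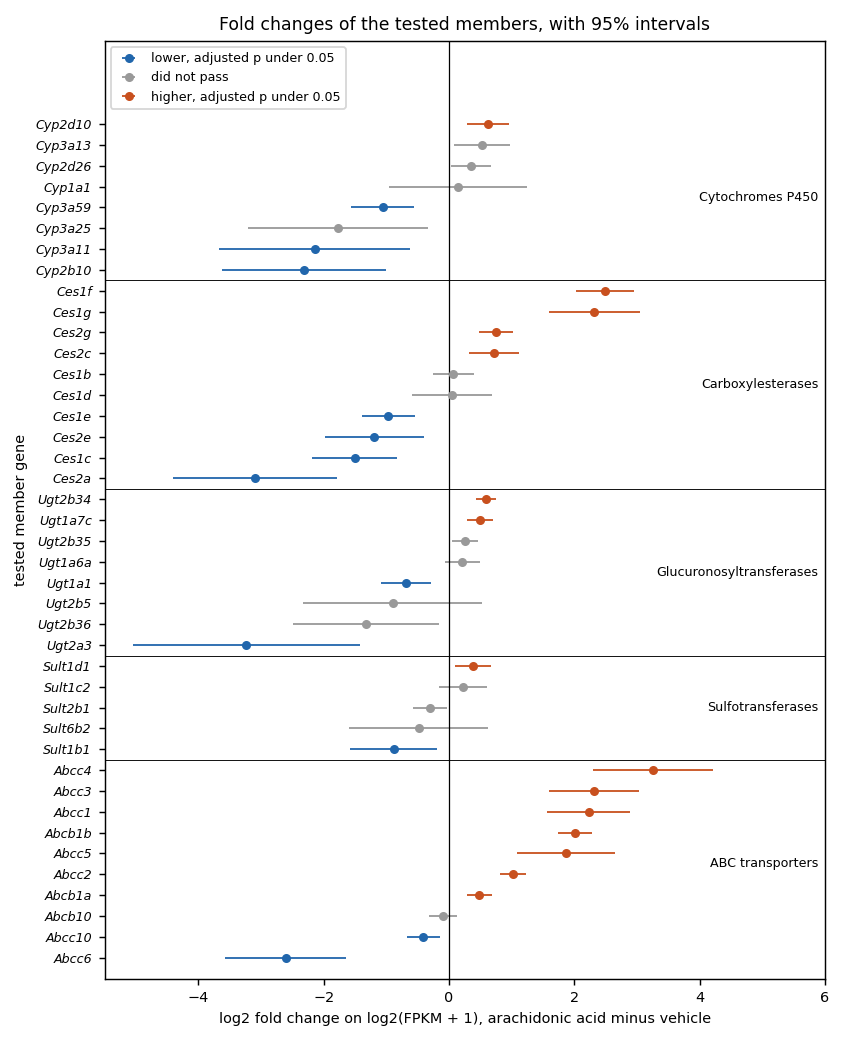
Log2 fold change, arachidonic acid minus vehicle, of the 41 tested members, with 95% intervals from limma and colours for the call. The fold changes run from -3.24 for Ugt2a3 to 3.25 for Abcc4, and the widest intervals belong to members for which arachidonic acid replicate 1 lay far from replicates 2 and 3.

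With vehicle, Ces2a was the most abundant member, followed by Abcb1a, Abcc2, Ces2e and Ugt2b34. With arachidonic acid the order was Abcc2, Abcb1a, Ugt2b34, Abcc3 and Ces1f, and Ces2a was at rank 7 of 47. Abcc3 moved from rank 16 to 4, Ces1f from 18 to 5 and Abcc4 from 32 to 11. In the other direction, Ugt2a3 moved from rank 17 to 32 and Cyp2b10 from 7 to 20.

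Among the cytochromes P450, the drug-inducible oxidases Cyp3a11 and Cyp2b10 fell and Cyp2d10 rose. Cyp3a11 (ENSMUSG00000056035), a main drug oxidase of mouse liver and gut and a target of the pregnane X receptor, stood at 98.4, 134 and 124 FPKM with vehicle and 81.5, 16.8 and 12.2 FPKM with arachidonic acid. Every arachidonic acid library was below every vehicle library, but replicate 1 lost far less than replicates 2 and 3. Cyp3a11 had a log2 fold change of -2.14 (SE 0.64, adjusted p = 0.036). The call did not hold under 7 of the 14 alternatives, among them leaving out any of the 5 libraries other than arachidonic acid replicate 1, with adjusted p of 0.0513 to 0.109. With the replicate number as a block its adjusted p was 0.0513. Without replicate 1 the difference was -2.95 (adjusted p = 2.64e-06).

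Cyp2b10 (ENSMUSG00000030483), the classic target of the constitutive androstane receptor, stood at 92.3, 107 and 103 FPKM with vehicle and 52.8, 13.7 and 9.87 FPKM with arachidonic acid. The pattern was that of Cyp3a11, with no overlap and with replicate 1 nearest to the vehicle libraries. For Cyp2b10 the log2 fold change was -2.31 (SE 0.55, adjusted p = 0.0168). Under 5 alternatives its adjusted p was 0.0501 to 0.0584, among them leaving out any 1 vehicle library or arachidonic acid replicate 2; without replicate 1 it was at -3.01 log2 units (adjusted p = 8.29e-07). Cyp3a25, next to Cyp3a11 in gene order, stood at 63.8, 86.7 and 87.5 FPKM with vehicle and 65.9, 14.7 and 11.1 FPKM with arachidonic acid. Here replicate 1 lay inside the vehicle range, and the gene did not pass, with a log2 fold change of -1.77 (SE 0.60, adjusted p = 0.0549). Without that replicate it was -2.53 (adjusted p = 6.12e-06), and by limma-voom on recovered fragments the gene passed with it (adjusted p = 0.0486).

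Cyp3a59, the next gene of that row, stood at 1.66, 1.95 and 1.97 FPKM with vehicle and 0.838, 0.216 and 0.148 FPKM with arachidonic acid, so that replicates 2 and 3 were at most 0.216 FPKM. The difference for Cyp3a59 was -1.06 log2 units (SE 0.21, adjusted p = 0.0092). Cyp3a13, which lies apart from the other Cyp3a members and is well expressed in mouse intestine, was at 20.5, 26.4 and 21.6 FPKM with vehicle and 42.6, 33.6 and 25.3 FPKM with arachidonic acid. Its value went the other way from those of its paralogs without passing (log2 fold change 0.53, SE 0.19, adjusted p = 0.0645), and it passed when arachidonic acid replicate 3 was left out (adjusted p = 0.0254) or under median-of-ratios scaling (0.0495). The ratio of Cyp3a11 to Cyp3a13 FPKM was 4.80, 5.07 and 5.75 with vehicle and 1.91, 0.50 and 0.482 with arachidonic acid. Reads can be shared between Cyp3a paralogs, so the split between them is uncertain.

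Cyp2d26 (ENSMUSG00000022445), of the Cyp2d group, had the highest mean of the 9 cytochromes P450 and was at 77.5, 95.9 and 79.8 FPKM with vehicle and 118, 118 and 89.4 FPKM with arachidonic acid. The lowest arachidonic acid library lay below the highest vehicle library, and the gene did not pass (log2 fold change 0.35, SE 0.13, adjusted p = 0.0772). Without arachidonic acid replicate 3 it passed (0.48, adjusted p = 0.0307). Cyp2d10 was at 0.796, 1.20 and 1.10 FPKM with vehicle and 2.01, 2.44 and 1.93 FPKM with arachidonic acid, low but with no overlap. By limma, Cyp2d10 changed by 0.62 log2 units (SE 0.14, adjusted p = 0.0152). Its adjusted p was 0.0567 without vehicle replicate 1 and 0.0566 without arachidonic acid replicate 2. Cyp2d22, whose mean was under 1 FPKM, was at 0.174, 0.158 and 0.374 FPKM with vehicle and 0.576, 3.01 and 1.49 FPKM with arachidonic acid. It met the 0.5 FPKM rule only through the arachidonic acid libraries, so no test is given.

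Cyp1a1, the most sensitive target of the aryl hydrocarbon receptor, was at 0.725, 0.545 and 2.25 FPKM with vehicle and 0.267, 1.32 and 2.99 FPKM with arachidonic acid. The libraries of each group spread over more than the difference between the groups, and no change was detectable (log2 fold change 0.15, SE 0.46, adjusted p = 0.821, 95% interval -0.96 to 1.25). Its sign reversed without vehicle replicate 2 and without arachidonic acid replicate 3.

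Carboxylesterases held the largest fall by level. Ces2a (ENSMUSG00000055730), an esterase of the endoplasmic reticulum that hydrolyses ester and amide drugs, was at 673, 793 and 918 FPKM with vehicle and 242, 62.2 and 50.7 FPKM with arachidonic acid. All 3 vehicle libraries were above all 3 arachidonic acid libraries, and the mean was 6.72-fold higher with vehicle. The log2 fold change of Ces2a was -3.09 (SE 0.55, adjusted p = 0.00657). Ces2a kept its call under every alternative run. Ces2e, of the same gene cluster, was at 114, 151 and 153 FPKM with vehicle and 105, 49.3 and 41.4 FPKM with arachidonic acid, with no overlap although replicate 1 came close to the lowest vehicle library. Ces2e had a log2 fold change of -1.19 (SE 0.33, adjusted p = 0.0291). It did not pass under 7 alternatives, with adjusted p of 0.0571 (with the replicate number as a block) to 0.0942. Without replicate 1 it was at -1.59 log2 units (adjusted p = 3.3e-05).

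Ces2c and Ces2g, of the same cluster, went the other way. Ces2c was at 78.7, 101 and 89.7 FPKM with vehicle and 167, 166 and 114 FPKM with arachidonic acid, without overlap, and Ces2g at 43.0, 48.7 and 48.8 FPKM with vehicle and 67.7, 89.1 and 82.0 FPKM with arachidonic acid, also without overlap. For Ces2c the log2 fold change was 0.71 (SE 0.17, adjusted p = 0.0161). The difference for Ces2g was 0.75 log2 units (SE 0.11, adjusted p = 0.00397). The call of Ces2c did not hold without vehicle replicate 1, vehicle replicate 3 or arachidonic acid replicate 2 (adjusted p 0.0547 to 0.0656). Ces2f, also in the cluster, was listed at 0.0196, 0 and 0 FPKM with vehicle and 0.231, 1.93 and 1.71 FPKM with arachidonic acid. It was under the limit for testing and met the member rule only through the arachidonic acid libraries. The ratio of Ces2a to Ces2c FPKM was 8.55, 7.85 and 10.2 with vehicle and 1.44, 0.375 and 0.443 with arachidonic acid. In replicates 2 and 3 Ces2c was the higher of the pair.

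Of the Ces1 members, Ces1f rose most by level. Ces1f (ENSMUSG00000031725), a lipid and drug esterase also found in liver, was at 22.3, 31.1 and 37.1 FPKM with vehicle and 144, 179 and 194 FPKM with arachidonic acid, so that the lowest arachidonic acid library was well above the highest vehicle library. By limma, Ces1f changed by 2.49 log2 units (SE 0.20, adjusted p = 0.000672). Replicate 1 was close to the others for this gene. Ces1g, which hydrolyses triglyceride and cholesteryl ester and is known from liver and intestine, was at 0.448, 0.550 and 0.521 FPKM with vehicle and 3.79, 6.64 and 10.7 FPKM with arachidonic acid. The log2 fold change of Ces1g was 2.32 (SE 0.30, adjusted p = 0.00261). The mean of Ces1g was 13.9-fold higher with arachidonic acid, from a level under 1 FPKM with vehicle.

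Ces1e and Ces1c fell. Ces1e was at 22.6, 23.9 and 22.2 FPKM with vehicle and 15.4, 10.3 and 8.90 FPKM with arachidonic acid, with tight vehicle libraries and no overlap. Ces1e had a log2 fold change of -0.97 (SE 0.18, adjusted p = 0.00753). Ces1c, the secreted esterase of mouse plasma, was at 3.3, 3.25 and 2.10 FPKM with vehicle and 1.03, 0.0212 and 0.187 FPKM with arachidonic acid. For Ces1c the log2 fold change was -1.51 (SE 0.29, adjusted p = 0.00791). Ces1f, Ces1g, Ces1e and Ces1c kept their calls under every alternative that tested them. Ces1d and Ces1b did not pass: Ces1d, a triglyceride hydrolase, was at 16.4, 26.6 and 14.0 FPKM with vehicle and 25.9, 16.1 and 16.3 FPKM with arachidonic acid, and Ces1b at 1.20, 1.17 and 1.28 FPKM with vehicle and 1.5, 1.04 and 1.46 FPKM with arachidonic acid. Their log2 fold changes were 0.05 (95% interval -0.59 to 0.68, adjusted p = 0.902) and 0.07 (-0.26 to 0.40, adjusted p = 0.712). Ces1 genes are close copies, and reads of one can be counted to another.

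Among the glucuronosyltransferases the 2 most abundant members rose by less than 1 log2 unit and Ugt2a3 fell by more than 3. Ugt2b34 (ENSMUSG00000029260) was at 129.8, 143 and 136 FPKM with vehicle and 197, 218 and 202 FPKM with arachidonic acid, with close replicates and no overlap. The difference for Ugt2b34 was 0.59 log2 units (SE 0.07, adjusted p = 0.00184). Ugt1a7c, an isoform of the Ugt1a locus found in the gut, was at 63.7, 69.5 and 79.3 FPKM with vehicle and 98.5, 101 and 102 FPKM with arachidonic acid, also without overlap. By limma, Ugt1a7c changed by 0.50 log2 units (SE 0.09, adjusted p = 0.00608). Both kept their calls under every alternative that tested them.

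Ugt2a3 (ENSMUSG00000035780), an isoform that glucuronidates bile acids, was at 29.4, 35.7 and 35.7 FPKM with vehicle and 13.1, 1.08 and 0.662 FPKM with arachidonic acid. Replicate 1 was well below the vehicle libraries, and replicates 2 and 3 were lower again, at about 1 FPKM or under. The log2 fold change of Ugt2a3 was -3.24 (SE 0.76, adjusted p = 0.0162). It did not pass when any 1 vehicle library or arachidonic acid replicate 2 was left out (adjusted p 0.0538 to 0.0574), and without replicate 1 it was at -4.21 log2 units (adjusted p = 2.06e-07). Ugt1a1, the enzyme that conjugates bilirubin, was at 6.68, 7.40 and 6.94 FPKM with vehicle and 5.15, 4.04 and 2.94 FPKM with arachidonic acid. Ugt1a1 had a log2 fold change of -0.69 (SE 0.17, adjusted p = 0.0182). The call of Ugt1a1 did not hold under 5 alternatives (adjusted p 0.051 to 0.0676), and without replicate 1 it was at -0.84 log2 units (adjusted p = 0.000667).

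The other glucuronosyltransferases did not pass. Ugt2b35 was at 49.0, 54.2 and 56.0 FPKM with vehicle and 69.5, 59.6 and 61.2 FPKM with arachidonic acid (0.25 log2 units, SE 0.09, adjusted p = 0.0548), without overlap, and it passed after rescaling to TPM (adjusted p = 0.0331) or by median-of-ratios (0.0282). Ugt2b36 was at 8.43, 12 and 12.1 FPKM with vehicle and 9.56, 1.61 and 2.70 FPKM with arachidonic acid and Ugt2b5 at 4.31, 6.36 and 6.80 FPKM with vehicle and 9.27, 1.15 and 1.14 FPKM with arachidonic acid. For both, replicate 1 was level with or above the vehicle libraries and replicates 2 and 3 were below them. Without replicate 1, both passed, with log2 fold changes of -1.91 and -1.65 (adjusted p = 8.39e-05 and 0.000102); with it, the values were -1.32 (adjusted p = 0.0686) and -0.90 (adjusted p = 0.266). Ugt1a6a, which conjugates phenols, was at 4.58, 5.71 and 5.28 FPKM with vehicle and 5.44, 6.67 and 6.37 FPKM with arachidonic acid (log2 fold change 0.21, adjusted p = 0.184), and Ugt1a9 at 0.807, 0.762 and 0.545 FPKM with vehicle and 0.809, 0.0770 and 0.113 FPKM with arachidonic acid, under the limit for testing. The 4 Ugt1a members have separate starts but common last exons. In the GENCODE M21 annotation, 50.3% to 59.9% of their exon bases lie in other genes on the same strand, other Ugt1a genes among them. A further overlap is with genes on the other strand, from 9.14% of exon bases for Ugt1a6a to 41.5% for Ugt1a1. Their separate values are therefore uncertain.

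Over all 6 libraries, the tested sulfotransferases that changed did so by less than 1 log2 unit. Sult1d1 (ENSMUSG00000029273), the most abundant sulfotransferase here, which acts on catecholamines, was at 46.6, 56.3 and 47.9 FPKM with vehicle and 74.7, 66.7 and 56.3 FPKM with arachidonic acid. The groups touched at 56.3 FPKM, the level of both the highest vehicle library and the lowest arachidonic acid library. For Sult1d1 the log2 fold change was 0.38 (SE 0.12, adjusted p = 0.0459). Sult1b1, its neighbour on the chromosome, which sulfates thyroid hormones and phenols, was at 9.37, 13.1 and 10.8 FPKM with vehicle and 9.41, 4.39 and 3.87 FPKM with arachidonic acid and overlapped through replicate 1. The difference for Sult1b1 was -0.88 log2 units (SE 0.29, adjusted p = 0.0494). Over all libraries both calls sat at the threshold: Sult1d1 did not pass under 6 alternatives (adjusted p 0.0525 to 0.146) and Sult1b1 under 10 (0.0501 to 0.147). With the replicate number as a block neither passed, at 0.0584 and 0.080. Without arachidonic acid replicate 1, Sult1b1 was at -1.22 log2 units (adjusted p = 0.000135).

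Sult2b1, which sulfates cholesterol, was at 7.59, 6.61 and 7.07 FPKM with vehicle and 6.23, 4.76 and 5.63 FPKM with arachidonic acid (-0.31 log2 units, SE 0.11, adjusted p = 0.0684). It passed without replicate 1 (-0.39, adjusted p = 0.0134). Sult1c2 was at 9.10, 12.5 and 10.2 FPKM with vehicle and 15.3, 12 and 10.4 FPKM with arachidonic acid (0.22, adjusted p = 0.304), with overlapping groups. Sult6b2 was at 4.23, 4.09 and 4.62 FPKM with vehicle and 7.58, 1.81 and 1.26 FPKM with arachidonic acid: replicate 1 was above all vehicle libraries and replicates 2 and 3 were below them. Its log2 fold change was -0.49 (adjusted p = 0.433) with replicate 1 and -1.08 (adjusted p = 0.000245) without it. Sult4a1, known mostly from brain, was at 0.404, 0.471 and 0.142 FPKM with vehicle and 0.926, 1.72 and 1.69 FPKM with arachidonic acid, and Sult1a1, the main phenol sulfotransferase, at 0.690, 1.06 and 0.647 FPKM with vehicle and 0.576, 0.217 and 0.531 FPKM with arachidonic acid. Both were under the limit for testing, and each met the member rule through 1 group only, Sult4a1 through arachidonic acid and Sult1a1 through vehicle.

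Of the 41 tested members Abcc4, a transporter, had the highest log2 fold change. Abcc4 (ENSMUSG00000032849), which exports cyclic nucleotides, prostaglandins and conjugates, was at 6.59, 4.92 and 5.58 FPKM with vehicle and 30.6, 81.8 and 96.9 FPKM with arachidonic acid. No arachidonic acid library came near the highest vehicle library, and replicates 2 and 3 were far above replicate 1. By limma, Abcc4 changed by 3.25 log2 units (SE 0.40, adjusted p = 0.00223). The mean of Abcc4 was 12.2-fold higher. Abcc3 (ENSMUSG00000020865), the basolateral exporter of bile acids and glucuronides, was at 30.9, 36.2 and 37.5 FPKM with vehicle and 105, 244 and 217 FPKM with arachidonic acid and was again lowest in replicate 1 of the arachidonic acid libraries. The log2 fold change of Abcc3 was 2.32 (SE 0.30, adjusted p = 0.00255). Abcc1 (ENSMUSG00000023088), which exports glutathione conjugates such as leukotriene C4, was at 10.7, 11.9 and 12.3 FPKM with vehicle and 35.6, 70.9 and 78.1 FPKM with arachidonic acid. Abcc1 had a log2 fold change of 2.23 (SE 0.28, adjusted p = 0.0023). Abcc5, an exporter of cyclic nucleotides, was at 7.54, 9.60 and 6.39 FPKM with vehicle and 17.7, 41.1 and 40.6 FPKM with arachidonic acid. For Abcc5 the log2 fold change was 1.87 (SE 0.33, adjusted p = 0.00619).

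In contrast to these 4 genes, Abcc2 and P-glycoprotein rose with close arachidonic acid replicates. Abcc2 (ENSMUSG00000025194), the apical exporter of glucuronide and glutathione conjugates, was at 142, 163 and 175 FPKM with vehicle and 319, 333 and 325 FPKM with arachidonic acid. The difference for Abcc2 was 1.03 log2 units (SE 0.09, adjusted p = 0.000825). Abcb1a, the main P-glycoprotein of the gut, which pumps drugs back to the lumen, was at 151, 162 and 170.0 FPKM with vehicle and 209.7, 249 and 219 FPKM with arachidonic acid, and Abcb1b, its tandem copy, at 1.06, 0.914 and 1.14 FPKM with vehicle and 6.56, 7.71 and 7.54 FPKM with arachidonic acid. Neither overlapped between groups. By limma, Abcb1a changed by 0.48 log2 units (SE 0.08, adjusted p = 0.00623). The log2 fold change of Abcb1b was 2.02 (SE 0.11, adjusted p = 0.000343). The ratio of Abcb1a to Abcb1b FPKM was 142, 177 and 148 with vehicle and 32.0, 32.3 and 29.0 with arachidonic acid. Reads from these similar copies can be counted to either, so their separate values are uncertain.

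Abcc6 (ENSMUSG00000030834), which is known for restraining tissue mineralisation through ATP release, fell. It was at 46.0, 48.7 and 42.1 FPKM with vehicle and 14.7, 4.11 and 4.56 FPKM with arachidonic acid, without overlap. Abcc6 had a log2 fold change of -2.61 (SE 0.41, adjusted p = 0.00436). Abcc10, an exporter of lipophilic conjugates, was at 18.2, 19.8 and 16.3 FPKM with vehicle and 11.7, 14.3 and 14.1 FPKM with arachidonic acid. For Abcc10 the log2 fold change was -0.41 (SE 0.11, adjusted p = 0.0248). Abcc10 did not pass under 4 alternatives (adjusted p 0.0534 to 0.0909), among them leaving out vehicle replicate 1 or 2 or arachidonic acid replicate 3. Abcb10 was at 9.63, 9.05 and 9.92 FPKM with vehicle and 9.87, 8.58 and 8.29 FPKM with arachidonic acid and did not pass (log2 fold change -0.09, 95% interval -0.31 to 0.13, adjusted p = 0.462). Abcc8 was at 0.817, 0.724 and 0.647 FPKM with vehicle and 0.631, 1.60 and 1.06 FPKM with arachidonic acid, under the limit for testing. Abcc1, Abcc2, Abcc3, Abcc4, Abcc5, Abcc6, Abcb1a and Abcb1b kept their calls under every alternative that tested them, and 7 transporters rose whichever 1 library was left out.

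Within the ABC transporters the balance between exit routes also differed in level. Abcc3 stood at 0.217, 0.222 and 0.214 of the FPKM of Abcc2 with vehicle and at 0.330, 0.734 and 0.666 of it with arachidonic acid. These ratios are descriptions and were not tested.

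Summed over members, ABC transporters were at 424, 467 and 477 FPKM with vehicle and 761, 1056 and 1012 FPKM with arachidonic acid, with no overlap. Carboxylesterases were at 975, 1181 and 1287 FPKM with vehicle and 774, 581 and 522 FPKM with arachidonic acid, also with no overlap. Ces2a alone was 69.3% of the mean carboxylesterase sum with vehicle and 18.9% with arachidonic acid. Without Ces2a the order of the groups turned: the other 10 carboxylesterases summed to 302, 387 and 369 FPKM with vehicle and 532, 519 and 472 FPKM with arachidonic acid.

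Cytochromes P450 summed to 356, 454 and 422 FPKM with vehicle and 364, 203 and 154 FPKM with arachidonic acid, where replicate 1 lay inside the vehicle range. Glucuronosyltransferases were at 297, 335 and 339 FPKM with vehicle and at 409, 393 and 379 FPKM with arachidonic acid, higher in every library. Sulfotransferases overlapped, at 78.0, 94.1 and 81.3 FPKM against 115, 91.7 and 79.7 FPKM. The sum over all 47 members was 2422 ± 256 FPKM (SD, n = 3) with vehicle and 2298 ± 139.5 FPKM (SD, n = 3) with arachidonic acid, so the makeup of the set differed while its total overlapped between groups. These sums follow the most abundant members and were not tested.

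**Figure D3:**
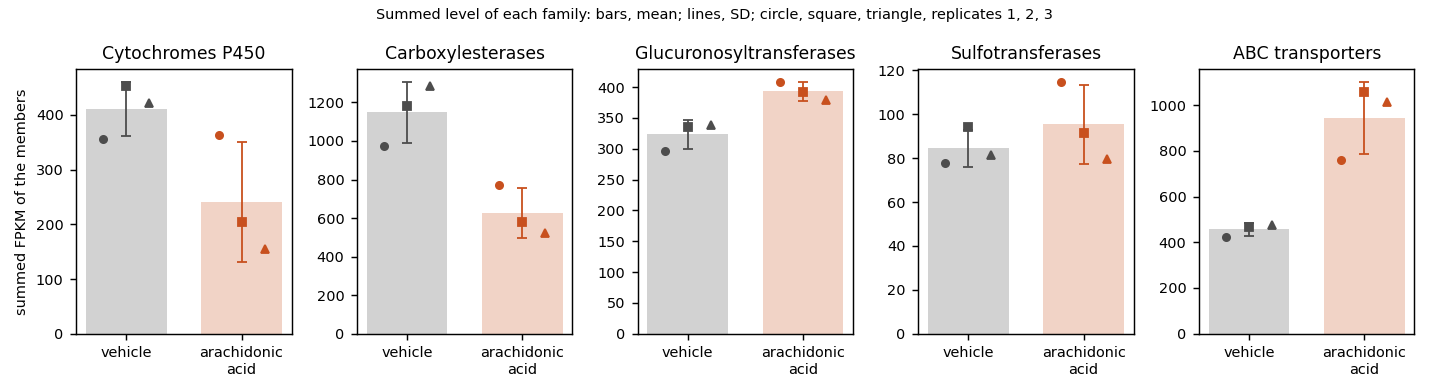
Summed FPKM of the members of each family in each library, with bars for the mean of 3 libraries and lines for the SD. The transporter sum is higher in all 3 arachidonic acid libraries (761 to 1056 FPKM) than in the vehicle libraries (424 to 477 FPKM), and the carboxylesterase sum is lower in all 3.

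Many members lie side by side in the genome, and some rows held calls in both directions. In the gene order of the GENCODE M21 annotation, Ces1b, Ces1c, Ces1d, Ces1e, Ces1f and Ces1g are consecutive. The last 2 of that row rose, the second and the fourth fell and the others did not pass. In the Ces2 row, Ces2a and Ces2e fell while Ces2c, which lies between them, and Ces2g rose. In the Ugt2 row, Ugt2b34 at one end rose and Ugt2a3 at the other fell, with the 3 members between them not passing. Sult1b1 and Sult1d1 are adjacent and had opposite calls. Abcb1a and Abcb1b are adjacent and both rose, and of the adjacent Cyp3a11, Cyp3a25 and Cyp3a59 the first and the last fell.

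**Figure D4:**
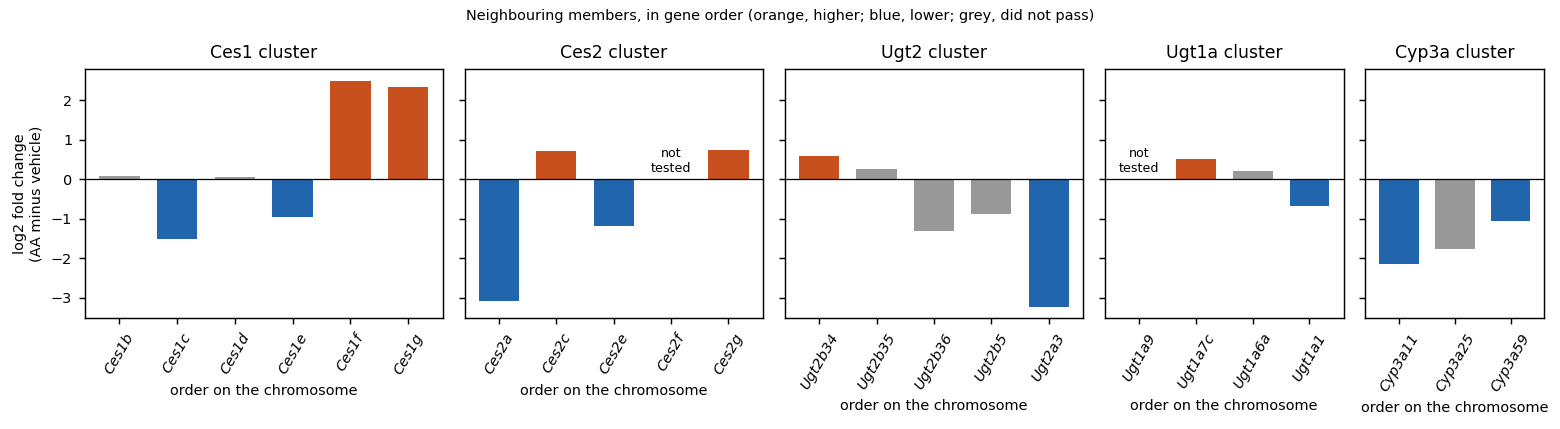
Log2 fold change of members that lie within the same gene row, in chromosome order, for 5 rows. Bars are coloured by call; the Ces1 and Ces2 rows each hold members that rose and members that fell.

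Arachidonic acid replicate 1 stood apart from replicates 2 and 3 for members as for other genes. With the vehicle mean at 0 and the mean of replicates 2 and 3 at 1, on the FPKM scale, replicate 1 had a median position of 0.63 over the 27 called members, 0.73 over those that rose and 0.59 over those that fell. Over all called genes it was 0.62. Since the test included replicate 1, genes in which it stayed near the vehicle were less likely to pass. For 5 members (Cyp3a25, Ugt1a6a, Ugt2b36, Sult1b1 and Abcb10) replicate 1 lay inside the vehicle range and replicates 2 and 3 both outside it, 10.6% of members against 13.4% of all tested genes. For 3 members (Ugt1a9, Ugt2b5 and Sult6b2) it lay above the vehicle range while the other 2 were below, 6.38% against 4.2%. Both member shares are over all 47, of which 6 were not tested. Ugt1a9 was 1 of these 6, and its replicate 1 was barely above the vehicle range, at 0.809 against 0.807 FPKM. Left out, replicate 1 gave 16 members that rose and 17 that fell. All 27 calls were also made without it, and 6 were added, 5 of them among genes tested in both fits. The other was Cyp2d22, which averaged 1 FPKM or more once replicate 1 was out, through arachidonic acid replicates 2 and 3 alone. Without replicate 1, Ugt1a6a and Abcb10 did not pass (log2 fold changes 0.28 and -0.16, adjusted p = 0.0501 and 0.126). Over all genes the same step took the rises from 2690 to 3554 and the falls from 2502 to 4192.

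**Figure D5:**
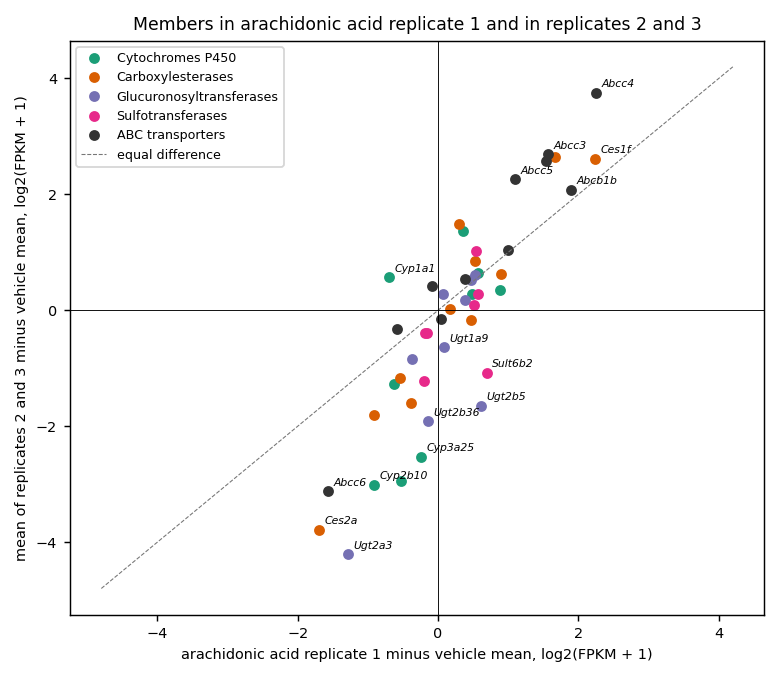
For each of the 47 members, the difference from the vehicle mean in arachidonic acid replicate 1 (horizontal) and in the mean of replicates 2 and 3 (vertical), both on the log2(FPKM + 1) scale, coloured by family. Ugt2b5 and Sult6b2 lie right of 0 and below 0, and most members that fell lie below the dashed line of equal difference.

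Genes that supply these enzymes with electrons and cofactors were read from a separate list. Of 22 listed genes 20 were tested, of which 10 rose, 4 fell and 6 did not pass, with a median log2 fold change of 0.53, beside 20.8% and 19.4% of all tested genes that rose and fell. Without arachidonic acid replicate 1 there were 6 falls, without replicate 2 there were 3, and without any other library 2. Ugdh, which makes UDP-glucuronic acid for the glucuronosyltransferases, was at 51.3 ± 2.52 FPKM (SD, n = 3) with vehicle and 321 ± 105 FPKM (SD, n = 3) with arachidonic acid (2.57 log2 units, SE 0.24, adjusted p = 0.00101). Slc35d1, which carries UDP-glucuronic acid into the endoplasmic reticulum, rose by 1.72 log2 units (SE 0.18, adjusted p = 0.00131). For sulfation, Papss2, one of the enzymes that make the sulfate donor, rose by 1.57 (SE 0.10, adjusted p = 0.000415) and the sulfate transporter Slc26a2 by 1.10 (SE 0.11, adjusted p = 0.00117). Papss1, the other such enzyme, was chosen after its value was seen and fell by 1.53 log2 units (SE 0.36, adjusted p = 0.016), from 116 ± 4.65 to 44.0 ± 26.9 FPKM (SD, n = 3 each); its adjusted p was 0.0551 to 0.0575 when any 1 vehicle library or arachidonic acid replicate 3 was left out. Por and Cyb5a, listed as electron donors of the cytochromes P450, were likewise chosen afterwards. So was Gclc, which catalyses the rate-limiting step of glutathione synthesis. Por rose from 194 ± 17.7 to 373 ± 38.3 FPKM (SD, n = 3 each; log2 fold change 0.94, adjusted p = 0.00149). Cyb5a went the other way, from 493 ± 3.20 to 353 ± 8.41 FPKM (SD, n = 3 each; -0.48, adjusted p = 0.0017). Cyb5b, Cyb5r3 and Cyb5r1 of the same list did not pass. Gclc rose from 59.0 ± 2.73 to 632 ± 332 FPKM (SD, n = 3 each; 3.22, adjusted p = 0.0027).

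Transcription factors and receptors that act on these gene families were read from another list. Of 17 listed, 16 were tested, of which 4 rose, 7 fell and 5 did not pass, with a median of -0.23, beside 20.8% and 19.4% of all tested genes. The falls numbered 9 without arachidonic acid replicate 1, 4 without vehicle replicate 3, and 1 or 2 without any other library; the rises numbered 1 to 4. With the replicate number as a block, 3 rose and 4 fell. Nfe2l2, which drives antioxidant response genes, rose from 81.2 ± 6.25 to 126 ± 7.12 FPKM (SD, n = 3 each; log2 fold change 0.63, adjusted p = 0.00238). Nr1h4, the bile acid receptor, rose by 0.56 (adjusted p = 0.0157, and 0.0635 without vehicle replicate 1). Hnf4a, a nuclear receptor of the enterocyte and hepatocyte programmes, fell from 464 ± 8.22 to 311 ± 36.9 FPKM (SD, n = 3 each; -0.58, adjusted p = 0.00438). The xenobiotic receptors were chosen for naming after their values were seen. Nr1i2, the pregnane X receptor, rose from 29.1 ± 0.646 to 34.2 ± 1.90 FPKM (SD, n = 3 each; 0.23, adjusted p = 0.0354), and Nr1i3, the constitutive androstane receptor, fell from 2.91 ± 0.370 to 1.52 ± 0.590 FPKM (SD, n = 3 each; -0.66, adjusted p = 0.040). Neither held under every alternative: Nr1i2 reached 0.115 and Nr1i3 0.125, and with the replicate number as a block they were at 0.0701 and 0.0689. Ahr, the aryl hydrocarbon receptor, was at 7.86 ± 0.750 and 9.13 ± 0.609 FPKM (SD, n = 3 each) and did not pass (0.20, adjusted p = 0.153).

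Other transporters of drugs and bile acids gave 5 rises and 1 fall among 13 tested of 20 listed (median 0.61), beside 20.8% and 19.4% of all tested genes. Of the 13, 3 (Slc51a, Slco2a1 and Slc47a1) averaged under 1 FPKM with vehicle and so reached the test through arachidonic acid. The median is the value of Slco2a1, whose groups overlapped. Without arachidonic acid replicate 1 there were 5 falls, and without any other library 0. The carnitine and organic cation carrier Slc22a5 rose by 0.99 (SE 0.06, adjusted p = 0.000415), Slc22a23 by 0.80 (adjusted p = 0.00201), Slc22a18 by 0.69 (adjusted p = 0.00196) and the efflux carrier Slc47a1, which reached the test only through its level with arachidonic acid, by 0.95 (adjusted p = 0.00529). The fall was Slco2b1, an organic anion uptake carrier named after its value was seen, at 21 ± 3.88 FPKM with vehicle and 10.0, 0.229 and 0.157 FPKM in the arachidonic acid libraries (log2 fold change -3.12, adjusted p = 0.0251, and up to 0.079 under 6 alternatives). Abcg2, an apical drug exporter outside the rule and chosen after its value was seen, was at 35.4, 39.7 and 45.2 FPKM with vehicle and 38.6, 13.4 and 14.1 FPKM with arachidonic acid. It did not pass (-1.0, adjusted p = 0.0746) unless replicate 1 was left out (-1.47, adjusted p = 1.01e-05).

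Other oxidising, reducing and hydrolytic enzymes gave 10 rises and 6 falls among 26 tested of 32 listed (median 0.34), beside 20.8% and 19.4% of all tested genes. Of the 26, 1 averaged under 1 FPKM with vehicle and 1 with arachidonic acid, so each of these reached the test through 1 group. With 1 library left out the rises numbered 7 to 13 and the falls 2 to 9, the most without arachidonic acid replicate 1. The carbonyl reductase Cbr3 rose from 55.5 ± 7.63 to 431 ± 94.0 FPKM (SD, n = 3 each; log2 fold change 2.92, adjusted p = 0.000415). The xanthine dehydrogenase Xdh rose by 1.31 (adjusted p = 0.00108). Gusb, the lysosomal glucuronidase that removes glucuronic acid, rose by 0.66 (adjusted p = 0.00138). Cyp2u1, a cytochrome P450 of fatty acid oxidation, fell by 1.62 (adjusted p = 0.00146), from 4.21 ± 0.568 to 0.711 ± 0.332 FPKM (SD, n = 3 each), and so reached the test through its vehicle level. Ephx1, the microsomal epoxide hydrolase, was chosen after its value was seen and rose by 1.60 (adjusted p = 0.00148).

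Many of the enzymes above are typical of mature enterocytes, so enterocyte markers are given beside them. Of 20 markers, all tested, 3 rose, 8 fell and 9 did not pass, with a median of -1.27, beside 20.8% and 19.4% of all tested genes. The falls numbered 14 without arachidonic acid replicate 1 and 2 to 5 without any other library. Their summed level was 3936 to 4884 FPKM with vehicle and 7179, 3517 and 2955 FPKM in arachidonic acid replicates 1, 2 and 3, with the sum in replicate 1 above all others. Fabp1 alone was 4094 FPKM of that sum; without it the other 19 markers summed to 3623, 4472 and 3897 FPKM with vehicle and 3085, 1533 and 1338 FPKM with arachidonic acid, below every vehicle library. The markers did not move together: Lct, which reached the test only through its vehicle level, fell by 3.11 log2 units (adjusted p = 0.000415) and Mep1a by 1.62 (adjusted p = 0.00962), while Alpi rose by 1.76 (adjusted p = 0.0013) and Fabp1 by 2.74 (adjusted p = 0.00207). All 7 tested enteroendocrine markers fell (summed 626 to 742 FPKM with vehicle, 118 to 160 FPKM with arachidonic acid), as did 4 of 5 tested goblet cell markers (1608 to 2032 FPKM, 369 to 716 FPKM), 3 of 5 Paneth cell markers and 2 of 4 crypt stem cell markers, with 1 rise in each of the last 2 lists. Beside these stand the 20.8% and 19.4% of all tested genes that rose and fell. For these cell types, unlike enterocytes, calls were not counted with a library left out. Of the tested markers, 1 of the Paneth cell list averaged under 1 FPKM with vehicle and 1 of the enteroendocrine list with arachidonic acid. Each of these reached the test through 1 group. The 4 tuft cell markers were under the limit for testing, at a sum of 1.12 to 2.11 FPKM. Of 5 hepatocyte markers 1, Ttr, was tested and fell; Cyp7a1 was at 0. The part of cell composition in the changes of the enzymes and transporters was not tested.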

How the data were processed

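RNA-seq of 6 libraries was used, 3 with vehicle and 3 with arachidonic acid. The deposited values are FPKM, fragments scaled by gene length and depth by the authors; the labels name no unit, and it was inferred because FPKM times the mean transcript length in GENCODE M21 gave whole multiples of a library's smallest step (96.3% to 96.7% of values under 100 fragments lay within 0.1 of a whole number). The submitters' processing notes name featureCounts 1.5.0-p3, HISAT2 2.0.5 and StringTie 1.3.3b. The sources used here give neither build, annotation nor strand setting, so overlapping and near-identical genes are uncertain. Of 53953 rows, 53274 matched a symbol.

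From these values, log2(FPKM + 1) was computed for genes averaging 1 FPKM or more, and limma 3.58.1 (R 4.3.3) was fitted across all 12913 of them with a mean-variance trend, two-sided, with Benjamini-Hochberg adjustment and a threshold of 0.05. The code of the fit was run on simulated data. Those data held no library set apart as arachidonic acid replicate 1 is, so they say nothing about calls that turn on it. Intervals are 95%. The members and gene lists were chosen with earlier results of these data known. Full statistics were given for each family's most abundant member and its largest called changes, and, from each list, for the 4 genes of smallest p; genes outside this are said to be chosen later. 1 gene that this rule names is not reported here. Alternatives were a pseudocount of 0.1, a minimum mean of 0.5 or 5 FPKM, no filter, rescaling to TPM, median-of-ratios scaling, leaving out each library, and a block for the replicate number; limma-voom on recovered fragments was chosen after seeing the data. Promoters came from RefSeq (GRCm38.p6). Python 3.11.15, numpy 2.4.6, pandas 2.3.3 and matplotlib 3.10.9 were used.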

Additional observations from a re-analysis of the deposited data

How the results depend on the processing

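Of the 27 member calls, 17 held under each of the 14 alternatives that tested the gene, and the adjusted p of the other 10 stand beside each gene. A minimum of 5 FPKM leaves out lower genes, and without vehicle replicate 2 or 3 Cyp3a59 was under the limit for testing. A pseudocount of 0.1 gave 0 falls among the sulfotransferases, as did a minimum mean of 0.5 FPKM and rescaling to TPM. The last 2 settings also gave 2 rises among the sulfotransferases and 2 among the cytochromes P450. They did so by adding Sult4a1 and Cyp2d22, which reach the minimum only through arachidonic acid. The minimum mean of 0.5 FPKM also added Ces2f, which reaches it in the same way, for 5 rises among the carboxylesterases. Median-of-ratios scaling likewise gave 2 rises among the cytochromes P450, and a minimum mean of 5 FPKM gave 0. With no filter on low values 6 members fell, namely 1 cytochrome P450, 1 glucuronosyltransferase, 0 sulfotransferases, 1 ABC transporter and the rest carboxylesterases; on the gene lists, 3 sensors, 0 other transporters, 3 other enzymes and 5 enterocyte markers fell. Rescaling to TPM gave 4 falls among the sensors, and median-of-ratios scaling 2 among the other transporters. Limma-voom on recovered fragments, chosen after seeing the data, moved no count by more than 1.5 times. Its fold changes were larger for some members of low level, among them Ces1c (-3.77, against -1.51 in the main fit), Cyp3a59 (-2.56, against -1.06) and Ces1g (3.65, against 2.32). For Cyp1a1, which was not called, the value was smaller (0.02, against 0.15).

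With 1 library left out, 1712 to 3554 of all tested genes rose and 1245 to 4192 fell, and 12 to 17 members rose and 4 to 17 fell. Rises and falls numbered 0 to 3 and 0 to 4 for cytochromes P450, 3 to 4 and 3 to 4 for carboxylesterases, 2 and 0 to 4 for glucuronosyltransferases, 0 to 1 and 0 to 3 for sulfotransferases, and 7 and 1 to 2 for ABC transporters. On the lists they numbered 1 to 4 and 1 to 9 for sensors, 10 to 11 and 2 to 6 for cofactor supply, 4 to 6 and 0 to 5 for other transporters, 7 to 13 and 2 to 9 for other enzymes, and 2 to 3 and 2 to 14 for enterocyte markers. Of the genes named, Cyp1a1 and Ces1d, neither of them called, changed sign, with ranges of -0.26 to 0.57 and -0.17 to 0.30 log2 units: Cyp1a1 was at -0.06 without vehicle replicate 2 and -0.26 without arachidonic acid replicate 3, and Ces1d at -0.03 without vehicle replicate 1, -0.13 without vehicle replicate 3 and -0.17 without arachidonic acid replicate 1. The cause was not tested.

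With the replicate number as a block, 2263 of all tested genes rose and 1998 fell, 14 members rose and 9 fell, 0 sulfotransferases were called in either direction and 4 sensors fell. The labels do not say that a number pairs cultures. Deviations of the same number correlated across genes at -0.0811, 0.210 and -0.0623 and those of different numbers at -0.177 to 0.190, and not every library correlated best with its own number.

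The members averaging under 1 FPKM, 6 of the 47, were not tested in the main fit because of its minimum mean. Their low levels are also read less well at a given depth.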
